A study of Homo sapiens with 9 samples.

Results

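The reads of RNA-binding proteins (RBPs) were followed on the mRNAs of 5 translation elongation factors, EEF1A1, EEF1B2, EEF1D, EEF1G and EEF2. Members were chosen by name, and every merged peak that overlapped 1 of these genes on its strand (GRCh38) was taken from every library, which gave 2171 of 2478204 peaks. EEF2 held 738 of these peaks, EEF1D 612, EEF1A1 315, EEF1G 287 and EEF1B2 219, among 21986 genes with a peak. The peaks came from antibody-barcode eCLIP (ABC), in which every antibody brings its own DNA barcode, joined to the RNA that was crosslinked to its RBP, so that 10 RBPs can be read from 1 tube.

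Multiplexed ABC was run on K562 cells, an erythroleukaemia line, in 3 replicates (30 libraries) and on HEK293 cells, an embryonic kidney line, in 2 replicates (20 libraries). Title and source of the latter samples say HEK293T and the study's methods HEK293XT, but their cell line field says K562, and both titles give replicate 1 with different original numbers. The third K562 replicate has K563 as its source and cell line. All cells were crosslinked with UV light, and each multiplexed tube held antibodies to DDX3, EIF3G, FAM120A, IGF2BP2, LIN28B, PRPF8, PUM2, RBFOX2, SF3B4 and ZC3H11A. Another 4 libraries held 1 antibody each, RBFOX2 in HEK293 cells (2 replicates) and SLBP, the histone stem-loop binding protein, in K562 cells (2 replicates). The peaks of a multiplexed library held 13351 to 2200267 reads in K562 cells (median 196444) and 23543 to 2800241 in HEK293 cells (median 452059), with PUM2 the shallowest RBP in both lines. Of 11 erythroid marker genes, 3 to 11 had a peak in the K562 libraries and 0 to 3 in the HEK293 libraries. Of 8 kidney and neural markers, 2 to 7 had a peak in the HEK293 libraries and 0 to 2 in the K562 libraries. The 10 libraries of a replicate come from 1 tube, and the labels do not say whether replicates were separate cultures, so p-values measure the spread between these libraries only.

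Translation elongation is the step at which the ribosome reads the coding sequence. EEF1A1 brings aminoacyl-tRNA to the ribosome as a GTP-bound factor, EEF1B2 and EEF1D are guanine nucleotide exchange factors that recharge it, EEF1G is the structural subunit of the exchange complex, and EEF2 moves the ribosome along the mRNA by translocation. Their mRNAs belong to the terminal oligopyrimidine (TOP) class, which starts with a cytosine and a run of pyrimidines, and whose translation responds to growth signals through the mTOR pathway.

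The first 20 bases of 4 of the annotated mRNAs are printed because the TOP tract defines the class. Capitals mark the cytosine at the start and the unbroken run of pyrimidines after it.
EEF1A1, chr6:73521013-73521032, minus strand: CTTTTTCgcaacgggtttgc
EEF1B2, chr2:206159895-206159914, plus strand: CCTTTTTCCTCTCTTCagcg
EEF1G, chr11:62573872-62573891, minus strand: actttgcggcagcgccgaga
EEF2, chr19:3985444-3985463, minus strand: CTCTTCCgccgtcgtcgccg
A start of C with at least 4 more pyrimidines stood on 4 of the 5 MANE Select transcripts (80%), against 895 of 19061 MANE Select mRNAs (4.7%). The annotated EEF1G transcript starts with A, and no capital stands in its line. Peaks that touched the tract were counted with all their reads, which need not lie on the tract, and no expected number was set beside them. Over all 54 libraries, 18 peaks with 264 reads touched the first 20 bases of EEF1A1, 3 peaks with 33 reads those of EEF1B2 and 7 peaks with 75 reads those of EEF1D, while no peak touched those of EEF1G or EEF2.

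The second set of sequences holds the sites to which the results below return. Both LIN28B sites lie in coding exons, and 30 bases around the median centre of the enriched K562 peaks at each site are given with GGAG, a motif known for LIN28 proteins, in capitals.
EEF1G exon 10, chr11:62559768-62559797, minus strand: ggcggaaactggatcctggcagcgaGGAGa
EEF2 exon 5, chr19:3982314-3982343, minus strand: tatgtggccaagttcgccgccaagggGGAG
GGAG, searched on the mRNA strand, was in the central 30 bases of 31.4% of 16321 LIN28B peaks enriched over the other barcodes in K562 cells and of 29% of all 47787 LIN28B peaks, so it was common among LIN28B peaks of either kind. These shares use the centre of each single peak, and the EEF2 GGAG lies at the edge of its window, so that a window centred on 1 replicate's peak can miss it. PRPF8, a core spliceosome protein, had its EEF1A1 sites at splice donors, and the last 6 bases of the exon and the first 14 of the intron are given with the GT of the donor in capitals.
EEF1A1 intron 4, chr6:73518918-73518937, minus strand: gctaacGTaagtggctttca
EEF1A1 intron 5, chr6:73518684-73518703, minus strand: ttggtgGTaagttggctgta
EEF1A1 intron 6, chr6:73518340-73518359, minus strand: gctcagGTaacaatttaaag
EEF1A1 intron 7, chr6:73518016-73518035, minus strand: ctttggGTaaggatgactac
EEF1B2 intron 1, chr2:206160054-206160073, plus strand: cgagggGTgagcggacgggc
SF3B4, a subunit of the SF3B complex that binds near the branch point, had its EEF1A1 site at the 3′ end of intron 1, whose last 30 bases are given with the AG of the acceptor in capitals.
EEF1A1 intron 1, chr6:73520057-73520086, minus strand: gtggttcaaagtttttttcttccatttcAG

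Levels are given as RPM, the reads in the peaks of a gene divided by all peak reads of the library and multiplied by 1000000, and between genes only as RPM of exon peaks per kb of the MANE Select mRNA. Averaged over the 10 RBPs of a K562 replicate, the per-kb exon level was 438 ± 66.8 (SD, n = 3) for EEF2, 187 ± 38.0 for EEF1G, 36.9 ± 3.59 for EEF1D, 19.2 ± 7.17 for EEF1A1 and 5.89 ± 3.92 for EEF1B2. In HEK293 cells the per-kb exon level was 544 ± 169 (SD, n = 2) for EEF2, 312 ± 39.5 for EEF1G, 68.3 ± 7.34 for EEF1D, 37.9 ± 35.3 for EEF1B2 and 16.6 ± 3.41 for EEF1A1. Single RBPs raise some of these means. The median over RBPs was 68.8 for EEF1G in K562 cells and 112 in HEK293 cells, where LIN28B had 1124 and 2110. For EEF1B2 in HEK293 cells the median was 24.1 and the highest RBP had 176, beside a median of 17.6 for EEF1A1. EEF2 was above EEF1G in 9 of 10 RBPs in each line, while EEF1A1 and EEF1B2 changed places between the lines and lay within their spread of each other in HEK293 cells. More binding and more of an mRNA in the cell cannot be told apart in these levels, since no RNA abundance was used. Reads that fit several places in the genome are lost in unique mapping, and EEF1A1, EEF1B2 and EEF1G have processed pseudogenes, so their exon levels are uncertain on the low side.

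Gene levels in RPM spread widely over libraries. EEF2 ranged from 1060 to 4617 RPM in K562 libraries (median 2396) and from 696 to 6584 in HEK293 libraries (median 1894), the highest being PUM2 replicate 1 with 155 reads, beside 1331 RPM from 62 reads in replicate 2. EEF1G ranged from 0 to 2110 RPM (median 117) in K562 libraries and from 52.9 to 3515 (median 189) in HEK293 libraries. EEF2 had the most reads of the 5 genes in all 30 K562 libraries and in 19 of 20 HEK293 libraries, the exception being LIN28B replicate 2, where EEF1G led. EEF1B2 ranged from 75.4 to 667 RPM in K562 libraries (median 244) and from 30.1 to 651 in HEK293 libraries (median 166). EEF1D ranged from 0 to 353 RPM (median 98.0) in K562 libraries and from 0 to 530 (median 281) in HEK293 libraries. EEF1A1 ranged from 0 to 865 RPM (median 156) in K562 libraries and from 0 to 256 (median 79.8) in HEK293 libraries. Together the 5 genes held 0.340% ± 0.0279 (SD, n = 3) of the peak reads of a K562 library and 0.320% ± 0.0635 (SD, n = 2) of a HEK293 library, averaged over RBPs. By RBP this share was highest for IGF2BP2 in K562 cells (0.494%) and for LIN28B in HEK293 cells (0.731%), and lowest for RBFOX2 in both lines (0.230% and 0.120%).

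**Figure D1:**
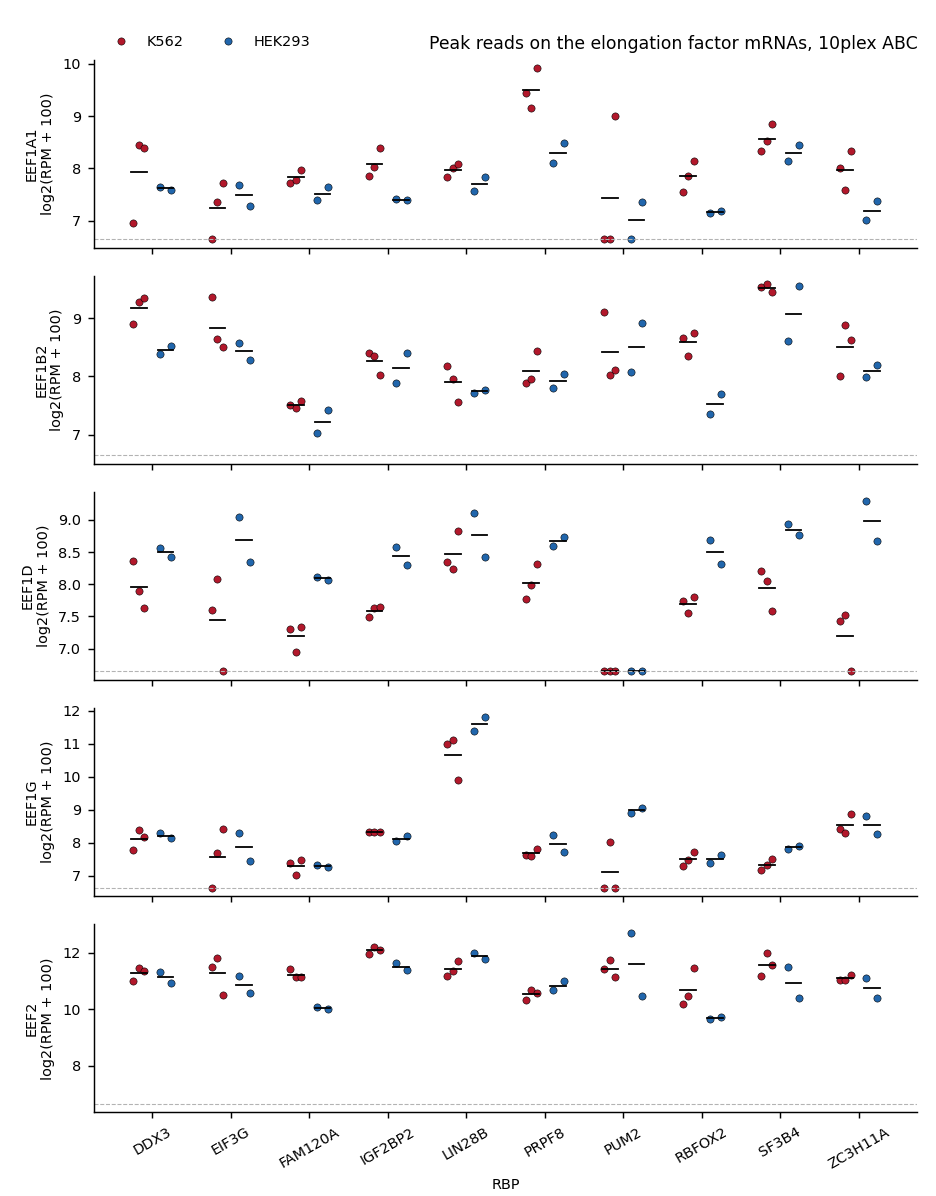
Reads of each member gene by RBP, as log2(RPM + 100), with 1 point per multiplexed library (K562 red, HEK293 blue), a black line for the mean of an RBP in a line and a dashed line where a gene has no peak. LIN28B stands above the other RBPs on EEF1G in both lines, PRPF8 is highest on EEF1A1 in K562 cells, and EEF2 is high for every RBP.

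Each RBP was compared with the mean of the other 9 of its pool in 1 limma fit over all genes with enough reads, with Benjamini-Hochberg adjustment over all genes and RBPs. All 5 members passed the filter on low values in both lines. In K562 cells 15 of the 50 pairs of member and RBP passed an adjusted p of 0.05, 6 higher and 9 lower, against 31.5% of all 94420 pairs of gene and RBP (16.2% higher and 15.3% lower). In HEK293 cells 14 of 50 pairs passed, 7 higher and 7 lower, against 22.2% of 123840 pairs (12.1% higher and 10.1% lower). The share of called pairs among the members was thus close to that over all genes. Among all K562 calls 51.5% were higher, and 63.0% were higher when reads were scaled by usable reads in place of peak reads.

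EEF1G and LIN28B gave the largest difference among the members in both lines. LIN28B, an RNA-binding protein known for blocking let-7 maturation and for binding coding sequences, had 1936, 2110 and 848 RPM on EEF1G in K562 cells, while the other 27 K562 libraries had 0 to 371 (median 107). In HEK293 cells LIN28B had 2587 and 3515 RPM on EEF1G, and the other 18 libraries 52.9 to 429 (median 172). The HEK293 LIN28B values are lower bounds, since the peaks that held nearly all of these reads (2 and 3 peaks in the replicates) have a CLIPper p of 0 and could be worked back only to the smallest whole number that their other deposited values allow. The LIN28B libraries did not overlap those of any other RBP in either line. The log2 difference was 2.94 (SE 0.27, limma adjusted p = 4.34e-08) in K562 cells and 3.56 (SE 0.20, limma adjusted p = 1.19e-06) in HEK293 cells. LIN28B was higher at 17.2% of all genes tested in K562 cells and at 7.94% in HEK293 cells. The difference on EEF1G held its direction and its call under all alternatives tried in either line.

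Most of these LIN28B reads lay at 1 place, the coding part of EEF1G exon 10 (chr11:62559747-62559818, minus strand, GRCh38), centred 1209 nt after the start of the coding sequence and 104 nt before its end. Peaks that overlapped the place held 276 of 284, 462 of 500 and 93 of 125 LIN28B reads on EEF1G in the K562 replicates (97.2%, 92.4% and 74.4%) and 590 of 606 and 937 of 976 in the HEK293 replicates (97.4% and 96.0%), where a read that spans touching peaks counts in each. Over the complement control (CC), the summed reads of the other barcodes of the pool, the log2 fold of the peak was 5.09, 4.97 and 3.94 in K562 cells and, with those smallest read numbers, 5.77 and 5.74 in HEK293 cells. The K562 peak held 138, 231 and 93 LIN28B reads against 66, 128 and 108 CC reads. Other RBPs had reads at the same place at a lower level, such as 21 of 39 DDX3 reads and 25 of 69 FAM120A reads on EEF1G in K562 replicate 2. An annotated readthrough transcript, ENSG00000255508, covers EEF1G on the same strand, and its reads cannot be separated from those of EEF1G.

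The other calls on EEF1G were smaller, and all but 1 were lower. FAM120A had 61.8 and 52.9 RPM in HEK293 cells, below all 18 other libraries (67.2 to 3515), with a log2 difference of −1.22 (SE 0.20, limma adjusted p = 0.00168), and −0.80 (limma adjusted p = 0.0298) in K562 cells. RBFOX2 was lower by 0.99 on the log2 scale in HEK293 cells (limma adjusted p = 0.00574). In K562 cells SF3B4 had a difference of −0.76 (limma adjusted p = 0.0383) and PUM2 of −1.01 (limma adjusted p = 0.00699), with 0, 161 and 0 PUM2 RPM where 3 reads are worth 225, 161 and 177 RPM. In HEK293 cells PUM2 was called in the other direction, with 382 and 429 RPM and a difference of 0.65 (limma adjusted p = 0.0425), which became −0.15 when scaled by usable reads. Each mean of the other 9 RBPs contains LIN28B, so its high value enters every 1 of these differences. The K562 calls of FAM120A, PUM2 and SF3B4 on EEF1G were each lost without replicate 1 (limma adjusted p = 0.0632, 0.0878 and 0.122).

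EEF2 carried reads of every RBP, and the RBPs differed in their place on the mRNA and, in part, in level. FAM120A, an RNA-binding scaffold protein, had 2633, 2137 and 2141 RPM in K562 cells and 975 and 922 in HEK293 cells, of which K562 replicate 2 and both HEK293 values are lower bounds for the same reason (2, 1 and 2 peaks). In K562 cells 84.1% ± 6.87 (SD, n = 3) of its EEF2 peak reads lay in the 3′ UTR and the rest on a snoRNA in an intron, while no FAM120A peak was centred in the coding sequence. In HEK293 cells 74.3% ± 9.41 (SD, n = 2) lay in the 3′ UTR, beside 757 reads in coding peaks. Over all mRNAs 80.7% ± 3.55 of FAM120A peak reads in K562 cells and 75.9% ± 1.03 in HEK293 cells lay in 3′ UTRs. With snoRNA peaks counted, the EEF2 share differed from this by less than its own spread between replicates. Of the FAM120A reads in exon peaks of EEF2 in K562 cells, 100% lay in the 3′ UTR. The EEF2 shares also include the peaks known only as lower bounds. The FAM120A peak with the most reads (chr19:3976265-3976328, minus strand) held at least 1839 reads in K562 replicate 2, where it is 1 of the peaks known only as a lower bound, and was centred 257 nt after the end of the coding sequence. Peaks are called against the coverage of their own gene, so the lack of a coding peak does not show that the coding sequence held no reads.

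IGF2BP2, which binds and stabilises mRNAs, had 3853, 4617 and 4272 RPM on EEF2 in K562 cells, where the other 27 libraries had 1060 to 4008. Of these 27, only SF3B4 replicate 2 lay above the lowest IGF2BP2 value, and that SF3B4 value is a lower bound through 1 peak. The IGF2BP2 log2 difference was 0.91 (SE 0.21, limma adjusted p = 0.00244), and IGF2BP2 was higher at 20.5% of all K562 genes. With peaks centred in exons alone it was 1.42 (limma adjusted p = 0.0765). HEK293 cells had 3109 and 2560 RPM, the latter a lower bound through 1 peak, with a log2 difference of 0.66 (limma adjusted p = 0.213). In K562 cells 69.4% ± 2.28 of IGF2BP2 reads on EEF2 lay in the 3′ UTR and in HEK293 cells 42.2% ± 2.32, against 47.9% ± 4.79 and 32.5% ± 5.83 over all mRNAs.

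LIN28B reads on EEF2 lay along the coding sequence. They made up 2229, 2511 and 3256 RPM in K562 cells and 3983 and 3382 in HEK293 cells, where the log2 differences were 0.17 (limma adjusted p = 0.536) and 1.06 (limma adjusted p = 0.0534). The coding share was 69.8% ± 2.16 in K562 cells and 79.3% ± 4.36 in HEK293 cells. Cut into 3 equal parts from start to stop codon, the coding sequence held 335, 342 and 300 LIN28B reads in K562 cells and 433, 534 and 518 in HEK293 cells, so no part of it stood apart. The EEF2 site enriched over the CC in all K562 replicates (exon 5, chr19:3982292-3982372) had log2 folds of 3.63, 3.05 and 3.73, and in HEK293 cells 3.88 and 2.90.

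DDX3 and EIF3G act in translation initiation as an RNA helicase and as a subunit of initiation factor 3. Both had more EEF2 exon reads in the first part of the coding sequence than in any other zone. The 5′ UTR has 83 nt, the whole coding sequence 2577 nt and the 3′ UTR 498 nt. Reads were not scaled to these lengths, so the counts do not show which zone was densest. In K562 cells DDX3 had 63 reads in 5′ UTR peaks, 244, 25 and 54 in the 3 parts of the coding sequence from start to stop codon, and 238 in the 3′ UTR, nearly as many as in the first part. In HEK293 cells the same zones held 54, 869, 438, 144 and 190 DDX3 reads. EIF3G had 12, 45, 19, 3 and 19 reads in K562 cells and 36, 137, 107, 0 and 60 in HEK293 cells. The pattern was not particular to them, since in HEK293 cells the first part also held the most exon reads for PRPF8 (1660, 1184 and 498 in the 3 parts), SF3B4 (255, 172 and 97) and PUM2 (73, 34 and 38). RBFOX2, a splicing regulator, had 696 and 739 RPM on EEF2 in HEK293 cells, below all 18 other libraries (922 to 6584), with a log2 difference of −1.39 (SE 0.35, limma adjusted p = 0.0176), and −0.63 (limma adjusted p = 0.0291) in K562 cells. PRPF8 had −0.80 (limma adjusted p = 0.00651) on EEF2 in K562 cells, and −0.29 (limma adjusted p = 0.272) when scaled by usable reads. The K562 calls of RBFOX2 and PRPF8 on EEF2 were lost without replicate 1 (limma adjusted p = 0.301 and 0.072) and without replicate 2 (0.305 and 0.0611). Each was lost under 5 of 13 alternatives, at a limma adjusted p of up to 0.664 for RBFOX2 and 0.662 for PRPF8.

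**Figure D2:**
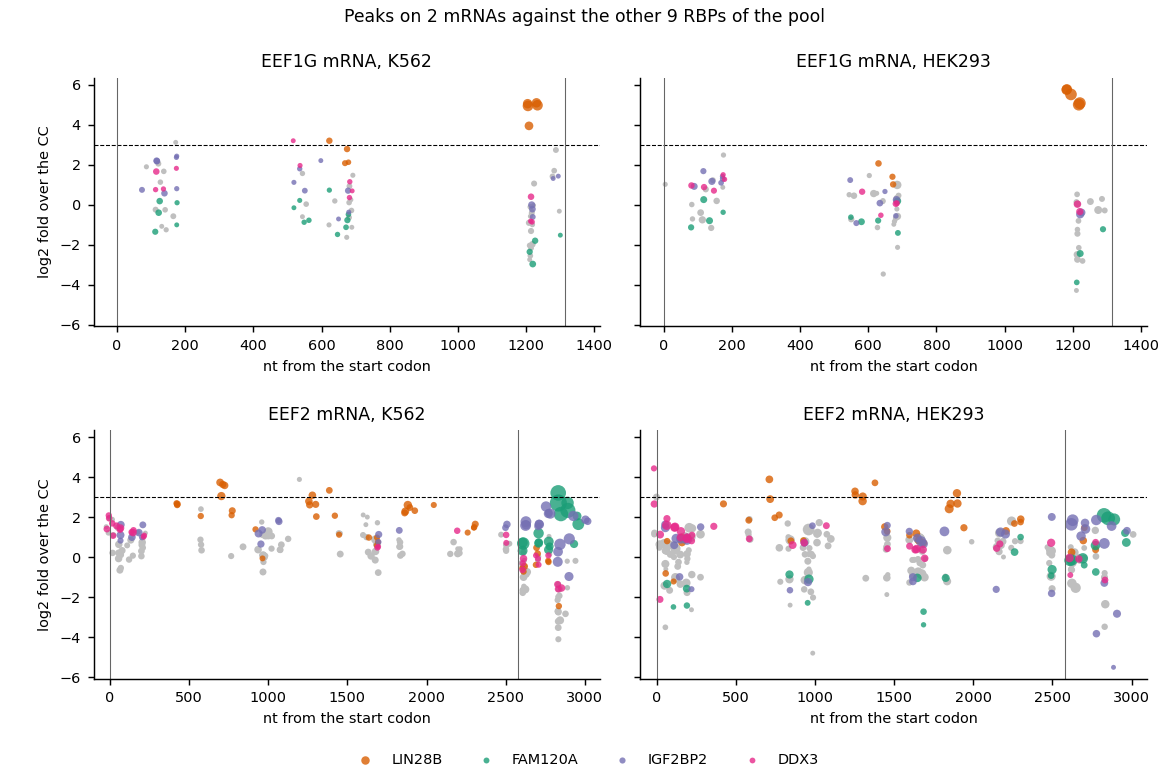
Peaks on the EEF1G and EEF2 mRNAs of multiplexed libraries, with the centre of the peak in nt from the start codon on the x axis and its log2 fold over the CC on the y axis; point area grows with the reads, vertical lines mark start and stop codon, and the dashed line is a log2 fold of 3. LIN28B (coloured) reaches log2 folds of 3.94 to 5.77 at 1 place near the EEF1G stop codon and is spread along the EEF2 coding sequence, where the FAM120A points gather in the 3′ UTR.

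Reads at snoRNAs inside introns set much of the gene level of EEF1B2 and part of that of EEF2. SnoRNAs guide chemical modification of ribosomal RNA and are processed from introns, and SNORD37 lies in an EEF2 intron (chr19:3982507-3982572), SNORD51 and SNORA41 in EEF1B2 introns (chr2:206161878-206161957 and chr2:206162228-206162359). In K562 cells 95.1% ± 1.26 of EEF1B2 reads (2205 of 2320) and 30.9% ± 7.38 of EEF2 reads (7829 of 24686) lay in peaks that overlapped a snoRNA. In HEK293 cells the snoRNA shares were 75.0% ± 15.8 (1859 of 2324) for EEF1B2 and 15.7% ± 5.73 (3645 of 24469) for EEF2. No peak of EEF1A1, EEF1D or EEF1G overlapped a snoRNA. SNORA41 held 1525 EEF1B2 reads in K562 cells and 1516 in HEK293 cells. Among RBPs the SNORD37 share of EEF2 reads was highest for SF3B4 (79.6% ± 11.3 in K562 cells and 46.4% ± 18.1 in HEK293 cells) and low for IGF2BP2 (14.1% ± 7.35 in K562 cells). Outside SNORD37, 120 of the SF3B4 intron reads on EEF2 in K562 cells lay in intron 14.

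**Figure D3:**
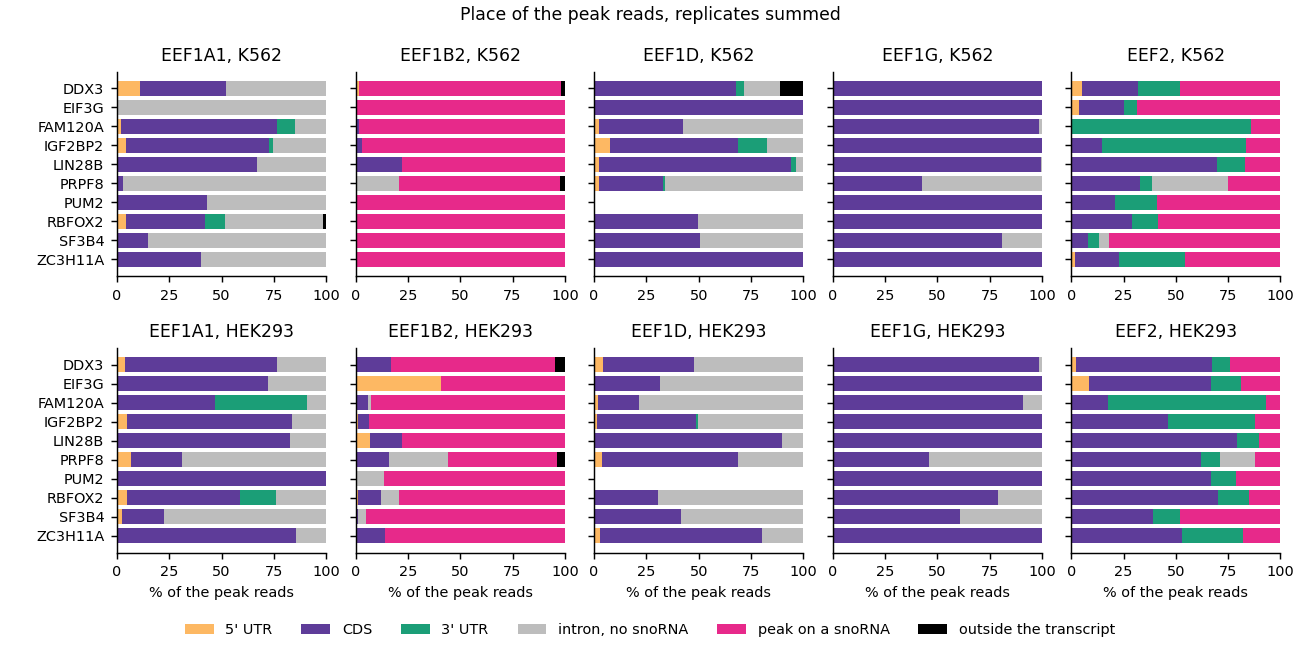
Place of the peak reads on each member gene by RBP, as percent of the reads with replicates summed (stacked bars, K562 and HEK293, multiplexed libraries). PRPF8 and SF3B4 reads on EEF1A1 are mostly intronic, FAM120A reads on EEF2 are mostly in the 3′ UTR, LIN28B reads on EEF1G are in the coding sequence, and EEF1B2 reads are mostly on snoRNAs.

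On EEF1A1 the highest K562 levels were those of PRPF8, the spliceosome protein with sites at splice donors, while in HEK293 cells SF3B4 was above PRPF8 in replicate 1 and below it in replicate 2. PRPF8 had 591, 469 and 865 RPM in K562 cells, above all 27 other libraries (0 to 413, median 152), and 175 and 256 RPM in HEK293 cells. The log2 difference was 1.62 (SE 0.26, limma adjusted p = 6.03e-05) in K562 cells and 0.80 (SE 0.15, limma adjusted p = 0.00399) in HEK293 cells, and PRPF8 was higher at 42.5% and 23.7% of all genes. SF3B4 had 223, 269 and 360 RPM in K562 cells with a log2 difference of 0.59 (limma adjusted p = 0.0895), and 181 and 247 RPM in HEK293 cells with 0.80 (limma adjusted p = 0.00404). Both HEK293 calls held under the alternatives tried, as did that of PRPF8 in K562 cells. The lower calls were PUM2 in HEK293 cells (−0.63, limma adjusted p = 0.0147, with 0 and 64.4 RPM) and EIF3G in K562 cells (−0.89, limma adjusted p = 0.0129), the latter lost without replicate 1 (limma adjusted p = 0.118).

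In K562 cells 96.1% ± 3.67 (SD, n = 3) of PRPF8 reads on EEF1A1 were in peaks centred in introns, 72.2% ± 11.9 (SD, n = 2) in HEK293 cells, against 65.9% ± 4.45 and 39.2% ± 7.14 of PRPF8 reads over all mRNAs. These peaks straddled exon ends, and only 1.79% and 7.05% of the reads were intronic when any overlap with an exon counted as exonic. Exon reads of EEF1A1 that also fit its processed pseudogenes are lost in unique mapping, which can raise its intron share above that of other mRNAs. How much of the contrast with all mRNAs this makes up was not tested. The 4 donors printed above were enriched over the CC in all K562 replicates. Intron 6 had 86, 64 and 184 PRPF8 reads in the K562 replicates at log2 folds over the CC of 3.38, 3.78 and 3.62. Intron 7 had 49, 52 and 115 reads at 3.70, 4.03 and 3.87, intron 4 had 56, 44 and 127 reads at 3.36, 3.24 and 3.70, and intron 5 had 20, 28 and 30 reads at 4.41, 4.91 and 3.65. The SF3B4 site at the 3′ end of intron 1 (chr6:73520051-73520130) had 10, 53 and 27 reads at log2 folds of 5.07, 5.03 and 5.07 in K562 cells and of 4.89 and 4.65 in HEK293 cells. Among sites enriched in all K562 replicates, those of PRPF8 thus lay at the 5′ ends of introns 4 to 7. That of SF3B4 lay at the 3′ end of intron 1. Peaks of both RBPs did share introns in K562 cells. Intron 1 held 120 PRPF8 and 102 SF3B4 reads, and intron 4 held 227 and 59.

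EEF1B2 had few reads away from its snoRNAs. SF3B4 had 641, 667 and 597 RPM in K562 cells, above all 27 other libraries (75.4 to 564), and 289 and 651 in HEK293 cells, with log2 differences of 1.15 (SE 0.20, limma adjusted p = 0.000166) and 1.07 (SE 0.18, limma adjusted p = 0.00198). All SF3B4 reads on EEF1B2 in K562 cells and 87.8% ± 17.2 in HEK293 cells lay on snoRNAs, and without snoRNA peaks the differences were −0.15 (limma adjusted p = 0.202) and −0.03 (limma adjusted p = 0.966). FAM120A had 83.1, 75.4 and 91.1 RPM in K562 cells, with log2 differences of −1.07 (limma adjusted p = 0.000354) there and −0.99 (limma adjusted p = 0.00322) in HEK293 cells, which became −0.11 and −0.44 (limma adjusted p = 0.325 and 0.415) without snoRNA peaks. DDX3 had 0.78 in K562 cells (limma adjusted p = 0.00573), 0.11 (limma adjusted p = 0.351) without snoRNA peaks. RBFOX2 had −0.65 in HEK293 cells (limma adjusted p = 0.027), −0.22 (limma adjusted p = 0.685) without snoRNA peaks. LIN28B went from −0.65 (limma adjusted p = 0.0186) to 0.32 (limma adjusted p = 0.00689) in K562 cells when snoRNA peaks were left out. Without snoRNA peaks none of the 7 EEF1B2 calls within a line kept both its direction and its side of the threshold. The site on the pre-mRNA enriched in all K562 replicates was that of PRPF8 at the donor of intron 1 (chr2:206160062-206160116), with 8, 6 and 9 reads at log2 folds over the CC of 5.41, 3.91 and 4.24, and 19 and 31 reads at 3.48 and 3.58 in HEK293 cells.

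EEF1D was placed on its long MANE Select transcript, so reads of shorter isoforms are assigned to its exons and introns. LIN28B had 225, 203 and 353 RPM in K562 cells, with a log2 difference of 0.95 (SE 0.21, limma adjusted p = 0.00152) that held under all alternatives tried, and 0.40 (limma adjusted p = 0.0814) in HEK293 cells. ZC3H11A, an mRNA export factor, had 530 and 306 RPM in HEK293 cells and a log2 difference of 0.63 (limma adjusted p = 0.0119), 0.09 (limma adjusted p = 0.487) when scaled by usable reads. SF3B4 had 389 and 333 RPM in HEK293 cells and 0.48 (limma adjusted p = 0.0411), lost without the replicate block (limma adjusted p = 0.111). No PUM2 peak lay on EEF1D in any of 5 libraries, where 3 reads are worth 225, 161 and 177 RPM in K562 cells and 127 and 64.4 in HEK293 cells. The PUM2 difference was −1.08 (limma adjusted p = 0.000454) in K562 cells, at a depth at which the K562 median of EEF1D (98.0 RPM) could not be seen. In HEK293 cells it was −1.97 (limma adjusted p = 8.78e-06), where the median of EEF1D (281 RPM) lay above both of these limits. That median sums over many peaks (median 14.5 per HEK293 library), while the limits are those of a single peak. A gene at this level could therefore lack a PUM2 peak at this depth, and the part of depth in the difference was not tested. SF3B4 had a site at the 3′ end of intron 3 with 12, 23 and 5 reads at log2 folds over the CC of 4.59, 4.15 and 3.17 in K562 cells.

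The libraries with RBFOX2 as their only antibody gave EEF1D the most reads of the 5 genes, 2111 and 1081 reads (478 and 495 RPM), against 311 and 219 RPM for RBFOX2 in multiplexed HEK293 libraries. Introns held 92.6% ± 0.84 (SD, n = 2) of these EEF1D reads, 1509 of 2963 in intron 1 and 724 in intron 5, and 70.5% ± 13.3 in the multiplexed libraries. None of the 57 and 53 RBFOX2 peaks on EEF1D in these libraries, and none of the RBFOX2 peaks on the other 4 genes, was enriched over the external background of the deposited tables at P below 0.001 and a fold above 8. The other genes had 233 and 411 RPM (EEF2), 70.0 and 72.8 (EEF1A1), 68.9 and 76.9 (EEF1B2) and 77.9 and 85.6 (EEF1G). The SLBP libraries had 697 and 1129 RPM on EEF2 (59 and 22 reads), no peak on EEF1G, 0 and 411 RPM on EEF1A1, 130 and 0 on EEF1B2 and 0 and 308 on EEF1D.

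HEK293 and K562 libraries of the same RBP were compared in 1 limma fit over all 50 multiplexed libraries. Cell line and pool cannot be told apart here, since each pool held 1 line. Of 50 pairs of member and RBP, 6 were higher and 2 lower in HEK293 cells, against 20.5% of 136310 pairs called over all genes (15.4% higher and 5.05% lower). Of the 6 higher pairs 5 were on EEF1D. The difference of an RBP from the other 9 itself differed between the lines for 2 of the 50 pairs, ZC3H11A on EEF1D and PUM2 on EEF1G, against 9.76% of all pairs. ZC3H11A had 72.2, 84.0 and 0 RPM on EEF1D in K562 cells and 530 and 306 in HEK293 cells, a log2 difference of 1.78 (SE 0.30, limma adjusted p = 2.27e-05) that held under all alternatives tried. EIF3G had 93.9, 172 and 0 RPM against 426 and 226, a log2 difference of 1.25 (limma adjusted p = 0.00195), lost without HEK293 replicate 1 (limma adjusted p = 0.137). In its K562 libraries 3 reads are worth 93.9, 64.3 and 66.0 RPM, so these values too are near the floor.

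The other 3 EEF1D calls were near the threshold. FAM120A had 58.6, 23.2 and 60.7 RPM in K562 cells against 177 and 169 in HEK293 cells (0.90, limma adjusted p = 0.0276), SF3B4 had 194, 164 and 91.4 against 389 and 333 (0.90, limma adjusted p = 0.0269), and IGF2BP2 had 79.6, 98.2 and 100.3 against 283 and 215 (0.85, limma adjusted p = 0.0379). Each of these was lost without HEK293 replicate 1 and without HEK293 replicate 2, at limma adjusted p of 0.0955 to 0.286. The HEK293 values of EEF1D did not overlap the K562 values for DDX3, PRPF8 or RBFOX2 either, with log2 differences of 0.53, 0.64 and 0.80 that did not pass (limma adjusted p = 0.251, 0.141 and 0.0526), and they overlapped for LIN28B (0.30, limma adjusted p = 0.649). PUM2 had 0, 161 and 0 RPM on EEF1G in K562 cells and 382 and 429 in HEK293 cells (1.88, SE 0.37, limma adjusted p = 0.000266), from 3 K562 reads and from 9 and 20 HEK293 reads, and 0.62 (limma adjusted p = 0.321) when scaled by usable reads.

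Both lower calls depended on the processing. FAM120A on EEF2 had a log2 difference of −1.19 (limma adjusted p = 0.0383), with all HEK293 values below all K562 values, but both HEK293 values and that of K562 replicate 2 are lower bounds, so the true difference may be smaller or larger. The call was lost without any K562 replicate and without HEK293 replicate 2 (limma adjusted p = 0.0602 to 0.164). RBFOX2 on EEF1B2 had −1.06 (limma adjusted p = 0.01), and 0.27 (limma adjusted p = 0.763) without snoRNA peaks. LIN28B on EEF1G (0.94, limma adjusted p = 0.075) and PRPF8 on EEF1A1 (−1.21, limma adjusted p = 0.0504) did not pass between the lines.

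**Figure D4:**
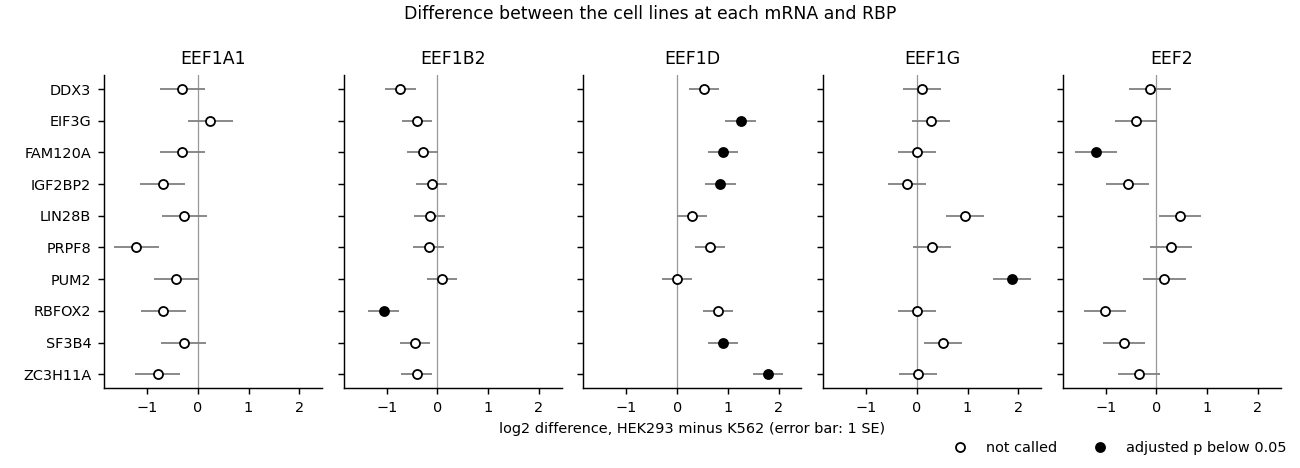
Log2 difference HEK293 minus K562 at each member gene for each of 10 RBPs, with bars of 1 SE from the limma fit; filled points have an adjusted p below 0.05. Of the 8 filled points 5 lie on EEF1D, with HEK293 higher, and the largest is PUM2 on EEF1G at 1.88.

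A peak counted as enriched over the CC when its P was under 0.001 and its fold over 8. Among members 76 of 895 K562 peaks (8.49%) and 62 of 989 HEK293 peaks (6.27%) were enriched, against 20.5% and 13.6% of all peaks with a CC value. PRPF8 gave 29 of the K562 peaks (of its 146), LIN28B 18 (of 102) and SF3B4 14 (of 100), where 22.5%, 37.6% and 30.9% of all peaks of these RBPs were enriched. In HEK293 cells PRPF8 gave 21 (of 135), SF3B4 17 (of 108) and LIN28B 13 (of 86), where 17.1%, 24.2% and 27% of all peaks were. For PRPF8 the members' share (19.9% in K562 and 15.6% in HEK293 cells) was near that of all its peaks, while for LIN28B it was 17.6% and 15.1% and for SF3B4 14% and 15.7%, with no test. The 2 splicing proteins and LIN28B made up most of the enriched peaks in both lines, and in K562 cells 9 sites were enriched in all 3 replicates, namely 5 on EEF1A1 and 1 on each other member.

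Other mRNAs of the pathway were described from lists of other elongation factors (14 of 20 tested in K562 cells, 16 in HEK293 cells), other TOP mRNAs (15) and ribosomal proteins (80 of 87 in K562 cells, 83 in HEK293 cells). The list called other elongation factors also held related genes that are not elongation factors themselves, such as EEF2K, DPH1, VARS1 and HBS1L. For LIN28B in K562 cells 2 of 5 members were higher and 1 lower, where 17.2% and 10.1% of all genes were, beside 4 of 14 other elongation factors (1 lower), 4 of 15 other TOP mRNAs (0 lower) and 29 of 80 ribosomal proteins (9 lower), and in HEK293 cells 26 of 83 ribosomal proteins were higher and 0 lower, where 7.94% and 8.91% of all genes were. TUFM, the mitochondrial elongation factor Tu, had a LIN28B log2 difference of 2.67 in K562 cells and 2.04 in HEK293 cells, and RPL18, a protein of the large ribosomal subunit, of 4.94 and 6.04, both named after their values were seen as the list members with the largest difference.

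For FAM120A in K562 cells 55 of 80 ribosomal protein genes were lower and 3 higher (median log2 difference −0.99), beside 2 of 5 members lower and 0 higher (median −0.47), where 11.1% of all genes were lower and 27.4% higher (median −0.02). In HEK293 cells 46 of 83 ribosomal protein genes were lower and 2 higher (median −0.96), and 2 of 5 members lower and 0 higher (median −0.99), where 6.23% of all genes were lower and 21.4% higher (median −0.01). On the list of other elongation factors and related genes 6 of 14 were higher and 3 lower in K562 cells (median 0.03). IGF2BP2 was higher at 9 of 15 other TOP mRNAs in K562 cells (0 lower) and at 1 of 5 members, where 20.5% of all genes were higher and 3.97% lower. RBFOX2 in HEK293 cells was lower at 3 of 5 members, 4 of 15 other TOP mRNAs and 41 of 83 ribosomal protein genes, where 4.11% of all genes were, with PABPC1, the poly(A)-binding protein, at −1.46 and RPL18 at −1.76. SF3B4 in HEK293 cells was higher at 3 of 5 members and at 20 of 83 ribosomal protein genes, where 9.54% of all genes were, with RPL7A, whose introns hold snoRNAs, at 1.83.

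The genes whose log2 values moved most like those of a member over the 30 K562 libraries were found by Pearson correlation after the replicate means were subtracted, as a description over libraries that share tubes and depth. For EEF1G these were ENSG00000255508 (r = 1), which shares its peaks, APOE (r = 0.92) and RPS19 (r = 0.92). For EEF1A1 they were SETD2 (r = 0.85), SAP30BP (r = 0.83) and ENSG00000204422 (r = 0.83), and for EEF1D ASNS (r = 0.84), LONP1 (r = 0.83) and ENSG00000284707 (r = 0.82). EEF1B2 was most like SNORA41 (r = 0.93), which shares its peaks, SNORD72 (r = 0.89) and PPAN-P2RY11 (r = 0.85). For EEF2 the highest correlations were lower, with LDHA and SNORD73A at r = 0.59 and HMGA1 at r = 0.58.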

How the data were processed

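The authors trimmed reads with cutadapt 2.8, set aside reads of repetitive elements, aligned the rest to GRCh38 with STAR 2.7.6 (versions from the submitters' processing notes), removed PCR duplicates by molecular identifier and called peaks per library with CLIPper, with GENCODE 35 genes. The files they deposited hold, per peak, CLIPper p-values, read counts in part of the libraries, −log10 P and log2 fold over an external background, and for multiplexed libraries the CC as either log2 fold and −log10 P or a chi-squared statistic. Those merged peak tables (overlapping peaks removed, −log10 P capped at 400) were used, and a table without peak reads had them worked back from its P, fold and CLIPper p (1507017 peaks, of which 3900 hold only the smallest whole number possible, 12 of them on the members). The deposited score column, the CLIPper display score and other fields were not used. Where the CC was a chi-squared statistic, CC reads and fold were worked back from it, and peaks in repeats have no CC value there.

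Members and gene lists were chosen with earlier results of these data known. Peaks were assigned with GENCODE 44 (99.1% of peaks lay in the gene the authors name) and placed by their centre on the MANE Select transcript. Touching peaks can share reads. Reads per gene were scaled to RPM over the peak reads of the library, and log2(RPM + 100) of genes with at least 10 reads in at least 3 libraries was fitted with limma 3.58.1 (R 4.3.3), replicate as a block within a line and none between lines, without an intensity trend, with Benjamini-Hochberg adjustment over all genes and RBPs. A fold on this scale understates the change of low genes. Reads were worked back with rounding, so no count model was the main test. The calculations were tested on simulated data with a set dispersion of 0.1. A simulated 2-fold change was called at 44% of changed genes in K562 cells, 6% in HEK293 cells and 0% between lines. At 4-fold these shares were 100%, 56% and 52%. Unchanged pairs were called in 3.33%, 0.749% and 0.85% of cases. A pair without a call can thus hold a change of this size. Python 3.11.15, numpy 2.4.6, pandas 2.3.3, scipy 1.17.1, bedtools 2.31.1 and samtools 1.23.1 were used. The named sites are those enriched over the CC in all K562 replicates (for each member and RBP the highest mean fold), otherwise the peak with the most reads, and the named like genes are the 3 with the highest correlation. For lists, genes with the largest or smallest difference were named. Alternatives covered the pseudocount, the low-value filter, voom weights, exon peaks, touching peaks, replicates, the block, the CC limits and the background, and, chosen after seeing the data, scaling by usable reads, leaving out snoRNA peaks and an intensity trend. The depth of 3 reads was taken as the floor of a library and covers counting error only.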

Additional observations from a re-analysis of the deposited data

Results flagged for a closer look

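The difference of an RBP from the other 9 was itself compared between the lines, in a limma fit over both, and 2 pairs of member and RBP passed an adjusted p of 0.05, where 9.76% of all pairs did. For EEF1D and ZC3H11A the difference was larger in HEK293 cells by 1.10 on the log2 scale (SE 0.31, limma adjusted p = 0.0199). The 3 K562 libraries of ZC3H11A held 4 EEF1D peaks in all, with values near the floor. For EEF1G and PUM2 it was larger in HEK293 cells by 1.66 (SE 0.39, limma adjusted p = 0.00434), from 3 PUM2 reads in the 3 K562 libraries and 29 in the 2 HEK293 libraries. The part of PUM2 depth in this value was not tested.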

How the results depend on the processing

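Of 37 called pairs of member and RBP 13 kept direction and call under all alternatives, and over 455 values 350 did so, 100 lost the call and 5 reversed. Reversed without snoRNA peaks were LIN28B and SF3B4 on EEF1B2 in K562 cells (0.324 and −0.147), SF3B4 on EEF1B2 in HEK293 cells (−0.026) and RBFOX2 on EEF1B2 between lines (0.265), and per usable reads PUM2 on EEF1G in HEK293 cells (−0.151); the causes were not tested. Per usable reads the median PUM2 difference over all genes in HEK293 cells moved from −0.25 to −0.15. Higher K562 pairs numbered 10 with touching peaks counted once and 10 per usable reads (6 in the main setting), and lower ones 4 without snoRNA peaks (9). Leaving out 1 replicate gave 5 to 8 higher and 3 to 10 lower pairs, and 17454 to 21773 calls over all genes (29762). Higher HEK293 pairs numbered 11 with touching peaks counted once (7). Between lines higher pairs numbered 3 at a pseudocount of 10, 3 with exon peaks alone and 2 per usable reads (6), with 2 to 8 when 1 replicate was left out, fewest without HEK293 replicate 1, and lower pairs 1 at a pseudocount of 1000, 1 without the filter, 5 with voom, 0 with exon peaks, 1 per usable reads and 0 without snoRNA peaks (2), with 1 to 2 when 1 replicate was left out.

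Enriched member peaks per K562 replicate went from 25.3 to 9.33 at P below 1e-05 and a fold above 16, to 83.3 at any fold above 1 and to 240.0 over the external background, and per HEK293 replicate from 31.0 to 11.0, 124.5 and 144.0. The share of peak reads on the members went from 0.340% to 0.121% with enriched peaks alone, 0.153% per usable read and 0.248% without snoRNA peaks in K562 cells, and from 0.320% to 0.161% and 0.117% under the first 2 in HEK293 cells. The 3′ UTR share on EEF2 became 100.0% for FAM120A in K562 cells both with enriched peaks alone and without snoRNA peaks, and for IGF2BP2 63.5% with touching peaks counted once and 81.1% without snoRNA peaks in K562 cells and 48.2% without snoRNA peaks in HEK293 cells. The intron share of PRPF8 on EEF1A1 became 100.0% with enriched peaks alone and 1.79% by any overlap in K562 cells, and 93.4% and 7.05% in HEK293 cells. Same-numbered replicates of the lines did not deviate together (median r −0.11), while libraries of 1 tube did so weakly (0.21 in K562 and 0.10 in HEK293 cells). Without the replicate block EIF3G on EEF1A1 (−0.89, limma adjusted p = 0.0537) in K562 cells and RBFOX2 on EEF1B2 and SF3B4 on EEF1D (limma adjusted p = 0.0772 and 0.111) in HEK293 cells lost the call, and with a replicate block no call between the lines was lost. Leaving out a HEK293 replicate could not be fitted within that line, since 10 libraries of 10 RBPs leave no residual degrees of freedom. PUM2, with 3 reads worth up to 225 RPM, limits what can be seen at low members.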
